A study of Mus musculus with 24 samples.

Results

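Interferon response genes are a set of 38 mouse genes whose transcripts are known to rise when a cell meets interferon, chosen by symbol from the annotation of the array platform. Where a gene had several probe sets, the one brightest on average stood for it. Of the 38, 36 had a probe set of their own and were measured among 18193 genes. The probe set for Isg15 is shared with another gene, and no level of Ifi44 is analysed here. The cells were retinal endothelial cell lines, made from adult C57Bl6/129 mixed background mice of mixed gender, wild type or Fz4-/-, that is, lacking frizzled-4, the receptor on endothelial cells for the secreted ligand Norrin. Both genotypes carried the Immorto-mouse transgene, in which the H2Kb promoter, itself driven by interferon gamma, controls a temperature-sensitive SV40 large T antigen. The lines were expanded at 33 °C and moved to 37 °C without interferon gamma before RNA was taken, so all 8 groups share a history of interferon gamma exposure by design. After 24 hours in 1% serum, Matrigel cultures spent 6 hours on that gel of basement membrane proteins. The other conditions of each genotype were gelatin, growth beside control human HEK293 cells, and growth beside HEK293 cells that make Norrin, with 3 arrays per group and 24 in all. Nothing in the labels tells if replicates came from separate cultures or if a genotype is more than 1 line, so the p-values cover the spread among these arrays, which may be technical.

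Interferons bind receptors on the cell surface and signal through JAK kinases to STAT proteins. Type I interferon assembles STAT2 and IRF9 on interferon-stimulated response elements, while interferon gamma acts mainly through gamma-activated sites, and IRF1 and IRF7 carry the response further. The targets code for sensors of foreign nucleic acid, antiviral effectors such as the IFIT, OAS and Mx proteins, the ISG15 conjugation system, GTPases that guard the cytoplasm against intracellular microbes, and chemokines that draw T cells. In endothelium these chemokines are displayed to passing leukocytes.

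The promoters of several members carry the textbook motifs of this pathway, and 7 are shown because their genes gave either the clearest differences below or an example of each motif. Each line holds the 150 bases before the transcription start, 5′ to 3′ on the strand of the gene, from RefSeq on GRCm38.p6. Capitals mark the core of the interferon-stimulated response element, TTTC and TTTC parted by any 2 bases (GAAA and GAAA where it lies on the other strand), or of the gamma-activated site, TTC and GAA parted by any 3 bases. Ifit1 lies at chr19:34640739-34640888 on the plus strand and holds 2 response element cores. Oas3 lies at chr5:120777660-120777809 and Rsad2 at chr12:26456453-26456602, both on the minus strand and both with 1 such core. Igtp, at chr11:58199406-58199555 on the plus strand, holds 1 gamma-activated core followed by 1 response element core. Gbp2, at chr3:142620513-142620662 on the plus strand, holds 1 response element core, and Irgm1, at chr11:48871421-48871570 on the minus strand, holds 2 that overlap. Irf1, at chr11:53769864-53770013 on the plus strand, holds 1 gamma-activated core.
Ifit1: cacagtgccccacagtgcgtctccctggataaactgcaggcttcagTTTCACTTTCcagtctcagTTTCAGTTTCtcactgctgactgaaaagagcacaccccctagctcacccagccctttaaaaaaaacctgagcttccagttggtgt
Oas3: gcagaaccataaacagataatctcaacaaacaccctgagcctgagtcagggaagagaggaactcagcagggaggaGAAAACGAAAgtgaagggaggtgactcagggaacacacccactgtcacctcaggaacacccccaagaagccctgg
Rsad2: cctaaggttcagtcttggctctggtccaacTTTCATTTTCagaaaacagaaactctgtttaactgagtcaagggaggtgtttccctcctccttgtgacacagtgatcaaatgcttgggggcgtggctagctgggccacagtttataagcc
Igtp: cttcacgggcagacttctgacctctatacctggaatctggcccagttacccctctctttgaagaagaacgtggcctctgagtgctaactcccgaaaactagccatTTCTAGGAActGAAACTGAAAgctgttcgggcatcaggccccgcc
Gbp2: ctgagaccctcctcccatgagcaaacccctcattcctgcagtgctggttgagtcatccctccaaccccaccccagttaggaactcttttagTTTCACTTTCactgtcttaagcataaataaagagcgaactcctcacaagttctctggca
Irgm1: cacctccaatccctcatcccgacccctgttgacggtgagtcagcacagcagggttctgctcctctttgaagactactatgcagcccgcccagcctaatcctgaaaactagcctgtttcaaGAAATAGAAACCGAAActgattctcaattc
Irf1: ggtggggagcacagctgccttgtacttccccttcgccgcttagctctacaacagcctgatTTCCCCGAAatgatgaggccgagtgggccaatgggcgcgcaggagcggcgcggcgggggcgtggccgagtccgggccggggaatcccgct

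In windows of 300 bases, 250 before and 50 after the start, 27 of the 38 listed genes had an entry, Isg15 and Ifi44 among them. The response element core was found in 15 of these 27 (55.6%) and in 3.99% of all 27025 genes with a promoter window. The gamma-activated core was found in 6 of 27 (22.2%) and in 9.55% of all genes. Among the 25 measured members with an entry the counts were 14 and 6. A match only describes the letters in these windows. Of the members, 8 lie in the genome directly beside another member, as the pairs Rsad2 and Cmpk2, Ifit2 and Ifit3, Oasl2 and Oasl1, and Oas2 and Oas3.

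By their overall level, and not by any label, the arrays fell into sets that bear on how the members can be compared. Over all genes the median log2 level was 6.19 to 6.42 in the single cultures, 4.44 to 4.50 in the wild type co-cultures and 4.19 to 4.31 in the Fz4-/- co-cultures. Genotype and array set cannot be told apart in co-culture, so no genotype test was made there. Co-culture RNA is roughly equal parts mouse and human, per the labels, so probe sets there may also meet human transcripts. Fzd4, read as a check on the labels, was at 8.44 to 9.09 in wild type and 4.62 to 5.50 in Fz4-/- arrays on gelatin. The 12 endothelial markers averaged 9.84 to 10.56 per single-culture array, and the 10 leukocyte markers 4.73 to 5.14, with the pan-leukocyte gene Ptprc at 2.54 to 3.10.

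Replicate 1 stood apart in the single cultures. On gelatin the median over the 36 members was 9.72, 11.12 and 11.03 in wild type replicates 1 to 3 and 7.66, 8.76 and 8.70 in Fz4-/- replicates 1 to 3. On Matrigel it was 9.48, 10.75 and 10.78 in wild type and 7.96, 8.52 and 8.57 in Fz4-/- cells. All 36 members were lower in replicate 1 than in the mean of replicates 2 and 3 in wild type on gelatin, by a median of -1.10, and 33 of 36 in Fz4-/- cells on gelatin, by -0.83. On Matrigel, 35 were lower in wild type replicate 1 (median -1.20) and 34 in Fz4-/- replicate 1 (median -0.68). The genotype difference was present at every number, with medians of -1.97, -2.33 and -2.34 at numbers 1 to 3 on gelatin and -1.70, -2.17 and -2.19 on Matrigel. At least 35 of 36 members were lower in Fz4-/- cells at each number. Over the members, replicates 2 and 3 differed from each other by a standard deviation of only 0.11 to 0.23 in the 4 groups, against 0.65 to 0.86 between either and replicate 1 (over all genes 0.15 to 0.18 and 0.33 to 0.35). Whether replicates 2 and 3 are independent cultures is not stated.

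**Figure D1:**
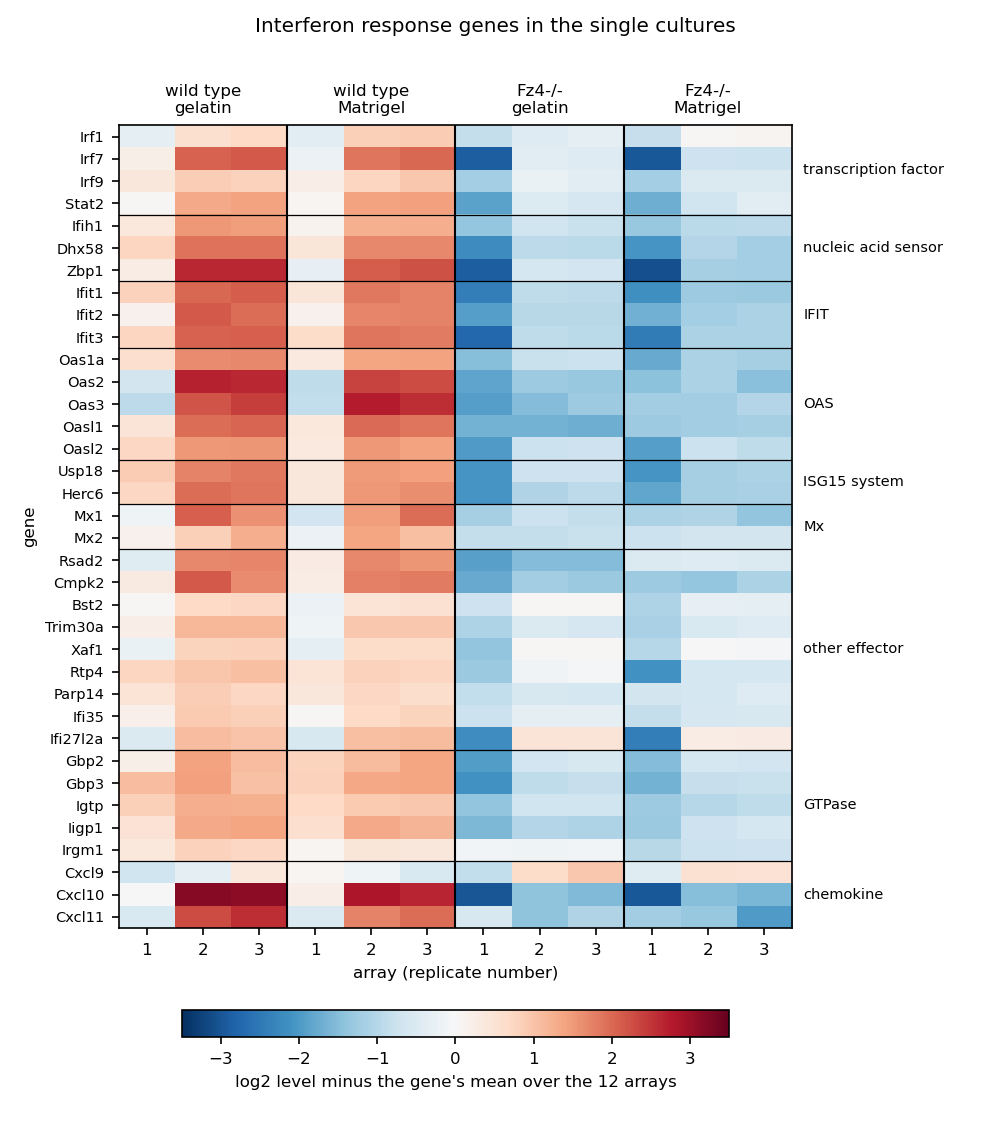
Colour shows the log2 level of each of 36 interferon response genes (rows, by role) in the 12 single-culture arrays (columns, by group and replicate number), relative to the mean of that gene over the 12 arrays. Wild type replicates 2 and 3 are the highest columns and Fz4-/- replicate 1 the lowest, on gelatin and on Matrigel alike.

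The comparison of genotypes on gelatin asks how the lines differ without added Norrin. Of the 36 members, 28 were lower in Fz4-/- cells, 0 were higher and 8 did not pass the test (limma, adjusted p below 0.05 after Benjamini-Hochberg). In this comparison 7.73% of all genes passed as lower and 7.21% as higher. Before adjustment 33 members had a p below 0.05, all lower, beside 13.6% of all genes. The median log2 difference was -2.30 for the members and 0.00 for all genes, and the members ranged from -4.09 for Cxcl10 to 0.46 for Cxcl9. In 32 members every Fz4-/- array lay below every wild type array and in 0 above, beside 16.6% and 16.0% of all genes. With the replicate number as a block, 35 of the 36 passed as lower (11.4% of all genes), Cxcl9 being the exception. With replicates 2 and 3 averaged into 1 sample, 6 did (2.04% of all genes): Oasl1, Herc6, Parp14, Gbp3, Igtp and Iigp1. In bulk RNA, fewer responding cells and less RNA per cell cannot be told apart.

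On Matrigel the picture was similar: 28 members were lower in Fz4-/- cells, 0 higher and 8 not past, where 8.77% of all genes passed as lower and 6.91% as higher. The median was -2.06, against 0.02 over all genes. Again 32 members had all Fz4-/- arrays below all wild type arrays and 0 above, beside 16.3% and 16.4% of all genes, and 32 had an unadjusted p below 0.05, all lower, beside 14.6%. With the block 35 passed (13% of all genes), and with replicates 2 and 3 averaged 6 passed (2.34%): Oas1a, Parp14, Gbp3, Igtp, Iigp1 and Irgm1. The members lower on both surfaces numbered 27, with Oas2 past on gelatin alone and Cxcl11 on Matrigel alone. Irf1, Irf7, Oas3, Bst2, Xaf1, Ifi27l2a and Cxcl9 did not pass on either surface.

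**Figure D2:**
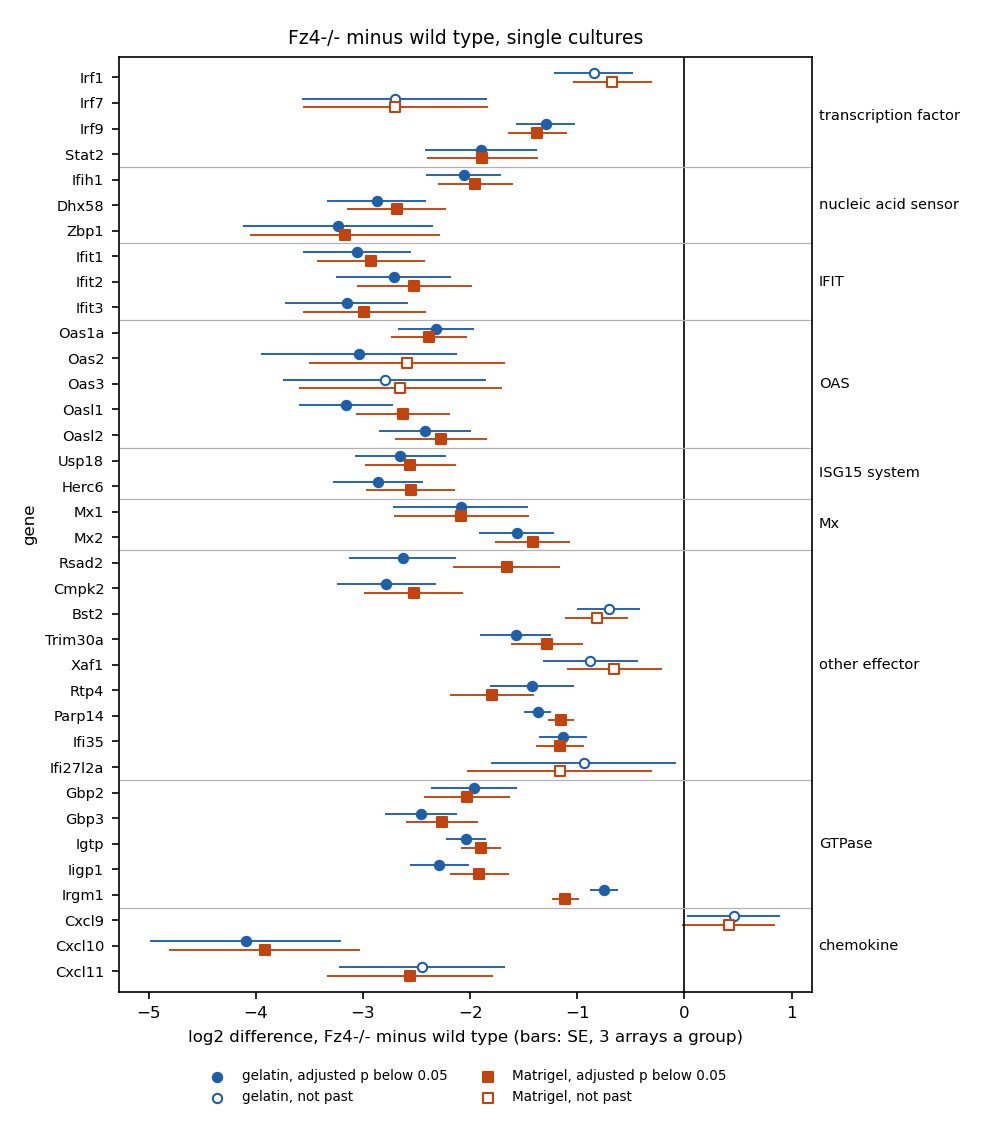
Points give the log2 difference, Fz4-/- minus wild type, for each gene on gelatin (circles) and Matrigel (squares), with 3 arrays per group. Bars are limma's SE of the difference, with the spread pooled over all groups of the fit. Filled points have an adjusted p below 0.05. Nearly all points lie left of 0, Cxcl10 farthest at -4.09 and -3.92, and Cxcl9 alone lies right of it on both surfaces.

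Among the transcription factors, Irf9, the DNA-binding part of the type I interferon complex, was lower in Fz4-/- cells by -1.29 ± 0.27 on gelatin (SE, adjusted p = 0.0080) and -1.37 ± 0.27 on Matrigel. Its partner Stat2 was lower by -1.90 ± 0.52 and -1.89 ± 0.52. Irf7, the factor that amplifies type I interferon production, was at 10.36, 12.22 and 12.30 in wild type replicates 1 to 3 on gelatin and at 7.27, 9.79 and 9.71 in Fz4-/- cells. On Matrigel Irf7 read 9.96, 12.03 and 12.15 in wild type and 7.20, 9.43 and 9.41 in Fz4-/- cells. The genotypes did not overlap on either surface, and within each group replicate 1 lay about 2 log2 below the others. Its difference of -2.70 ± 0.86 on gelatin did not pass (adjusted p = 0.0572, range 1.11e-07 to 0.278 over the alternatives), whereas within replicate numbers (the block) it did, at 1.11e-07. Irf1, an early target of interferon gamma, differed by -0.85 ± 0.37 on gelatin (adjusted p = 0.164, with the block 0.0014) and -0.67 ± 0.37 on Matrigel.

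All 3 nucleic acid sensors were lower in Fz4-/- cells on both surfaces. Ifih1 (MDA5) and Dhx58 (LGP2), which detect double-stranded RNA, differed by -2.06 ± 0.35 and -2.87 ± 0.46 on gelatin. Zbp1, which senses Z-form nucleic acid, was at 7.90, 10.28 and 10.26 in wild type on gelatin and 4.75, 7.01 and 6.96 in Fz4-/- cells. On Matrigel it read 7.36, 9.76 and 9.86 against 4.56, 6.48 and 6.44. The groups did not overlap, but wild type replicate 1 lay less than 1 log2 above the highest Fz4-/- array on each surface. The difference was -3.24 ± 0.89 on gelatin (9.42-fold, adjusted p = 0.0293) and -3.17 ± 0.89 on Matrigel (adjusted p = 0.0314).

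The 3 IFIT genes, whose products bind viral RNA and block its translation, were all lower. Ifit3 was at 11.31, 12.62 and 12.65 in wild type and 7.81, 9.69 and 9.62 in Fz4-/- cells on gelatin. On Matrigel it was at 11.20, 12.45 and 12.39 against 8.13, 9.47 and 9.47. Every wild type array was above every Fz4-/- array by more than 1.5 log2. Ifit3 differed by -3.15 ± 0.57 on gelatin (8.89-fold, adjusted p = 0.0033), Ifit1 by -3.06 ± 0.50 and Ifit2 by -2.71 ± 0.54, with -2.99, -2.92 and -2.52 on Matrigel.

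Of the 5 OAS genes, which code for synthetases of 2′-5′ oligoadenylate and their relatives, 4 were lower on gelatin and 3 on Matrigel. Oasl1, an OAS-like protein reported to restrain Irf7 translation, read 9.61, 11.13 and 11.20 in wild type and 7.51, 7.52 and 7.45 in Fz4-/- cells on gelatin. On Matrigel it read 9.53, 11.14 and 11.04 against 7.90, 7.94 and 7.995. In contrast to Ifit3, the Fz4-/- arrays hardly differed from each other. The difference was -3.16 ± 0.44 (8.92-fold, adjusted p = 5.36e-04) and -2.62 ± 0.44. Oas1a and Oasl2 were lower by -2.32 ± 0.36 and -2.42 ± 0.43 on gelatin, and by -2.38 and -2.28 on Matrigel.

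Oas3 was uneven within wild type, at 4.21, 7.33 and 7.55 on gelatin and 4.29, 7.90 and 7.74 on Matrigel. The Fz4-/- arrays read 3.204, 3.62 and 3.87 on gelatin and 3.93, 3.92 and 4.13 on Matrigel. Wild type replicate 1 was therefore close to the Fz4-/- arrays, and the differences of -2.80 ± 0.95 and -2.65 ± 0.95 did not pass (adjusted p = 0.0727 and 0.0848, with the block 0.0110 and 0.0144). Oas2 had the same form, with 6.11, 9.44 and 9.39 in wild type and 4.92, 5.48 and 5.42 in Fz4-/- cells on gelatin. It passed there at -3.04 ± 0.91 (adjusted p = 0.0448) but not on Matrigel (-2.59 ± 0.91, adjusted p = 0.0801).

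The ISG15 system attaches the ubiquitin-like protein ISG15 to other proteins. Herc6, its mouse ligase, read 9.53, 10.75 and 10.66 in wild type and 6.73, 7.74 and 7.89 in Fz4-/- cells on gelatin, and 9.20, 10.32 and 10.43 against 6.97, 7.64 and 7.66 on Matrigel. The genotypes were more than 1.5 log2 apart in every pair of arrays. Herc6 was lower by -2.86 ± 0.42 and -2.56 ± 0.42, and Usp18, which removes ISG15 and dampens receptor signalling, by -2.65 ± 0.42 and -2.56 ± 0.42.

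The Mx genes code for dynamin-like GTPases that trap viral nucleocapsids. Mx1 read 4.15, 6.41 and 5.90 in wild type and 3.15, 3.56 and 3.49 in Fz4-/- cells on gelatin. On Matrigel it read 3.65, 5.77 and 6.27 against 3.22, 3.27 and 2.94. Only wild type replicates 2 and 3 were clearly high. The differences of -2.09 ± 0.63 on gelatin (adjusted p = 0.0460) and -2.08 ± 0.63 on Matrigel (adjusted p = 0.0447) passed narrowly. Mx2 was lower by -1.57 ± 0.35 and -1.42 ± 0.35.

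Of the 9 other effectors, 6 were lower on each surface. Cmpk2, a mitochondrial nucleotide kinase, read 8.96, 10.81 and 10.31 in wild type and 6.91, 7.45 and 7.37 in Fz4-/- cells on gelatin, and 8.92, 10.43 and 10.49 against 7.39, 7.31 and 7.55 on Matrigel. It was lower by -2.78 ± 0.46 and -2.53 ± 0.46. Its neighbour Rsad2 (viperin), which makes a chain-terminating nucleotide, read 10.23, 12.34 and 12.37 in wild type and 8.78, 9.14 and 9.14 in Fz4-/- cells on gelatin. On Matrigel the Fz4-/- arrays stood higher, at 10.15, 10.20 and 10.16, with wild type at 10.94, 12.34 and 12.21. Rsad2 was lower in Fz4-/- cells by -2.63 ± 0.50 on gelatin and -1.66 ± 0.50 on Matrigel (adjusted p = 0.0437). Parp14, an ADP-ribosyltransferase, had the least spread of the group, and was lower by -1.37 ± 0.12 and -1.15 ± 0.12 (adjusted p = 2.10e-05 and 8.13e-05). Trim30a, Rtp4 and Ifi35 were also lower on both surfaces, by -1.14 to -1.79. Bst2 (tetherin), Xaf1 and Ifi27l2a had differences of -0.71, -0.88 and -0.94 on gelatin that did not pass. A further probe set of Xaf1, which was not tested, differed by -4.44 on gelatin and -4.59 on Matrigel.

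The 5 interferon-inducible GTPases, which assemble on vacuoles of intracellular microbes, were all lower on both surfaces. Gbp3 read 11.71, 12.07 and 11.65 in wild type and 8.50, 9.74 and 9.82 in Fz4-/- cells on gelatin. On Matrigel it read 11.45, 11.98 and 12.01 against 8.97, 9.82 and 9.84. In wild type on gelatin its replicate 1 lay between the others. Gbp3 was lower by -2.46 ± 0.34 (5.49-fold, adjusted p = 4.99e-04) and -2.27 ± 0.34, Iigp1 by -2.29 ± 0.28 and -1.91 ± 0.28, Igtp by -2.04 ± 0.19 and -1.90 ± 0.19, and Gbp2 by -1.96 ± 0.40 and -2.03 ± 0.40. Irgm1 had the smallest difference of the 5: on gelatin it read 10.59, 11.03 and 10.92 in wild type and 10.11, 10.07 and 10.11 in Fz4-/- cells, a difference of -0.75 ± 0.13.

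The chemokines of the set share the receptor CXCR3 on T cells but did not move together. Cxcl10 read 8.68, 11.86 and 11.80 in wild type and 5.68, 7.25 and 7.12 in Fz4-/- cells on gelatin. On Matrigel it read 8.90, 11.50 and 11.33 against 5.71, 7.19 and 7.08. Replicate 1 was the lowest array of each group, and the genotypes did not overlap. Cxcl10 was lower by -4.09 ± 0.89 (17.1-fold, adjusted p = 0.0094) and by -3.92 ± 0.89 (adjusted p = 0.0113). Cxcl11 differed by -2.45 ± 0.78 on gelatin (adjusted p = 0.0550, with the block 0.0297) and was lower by -2.56 ± 0.78 on Matrigel (adjusted p = 0.0443). Cxcl9 overlapped between the genotypes, with 0.46 ± 0.43 and 0.41 ± 0.43, and its arrays stayed between 3.24 and 5.02 on both surfaces. For Cxcl11 a further probe set differed in sign on both surfaces, and for Cxcl9 on gelatin, while in the other 13 members with several probe sets all of them had the same sign on gelatin.

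**Figure D3:**
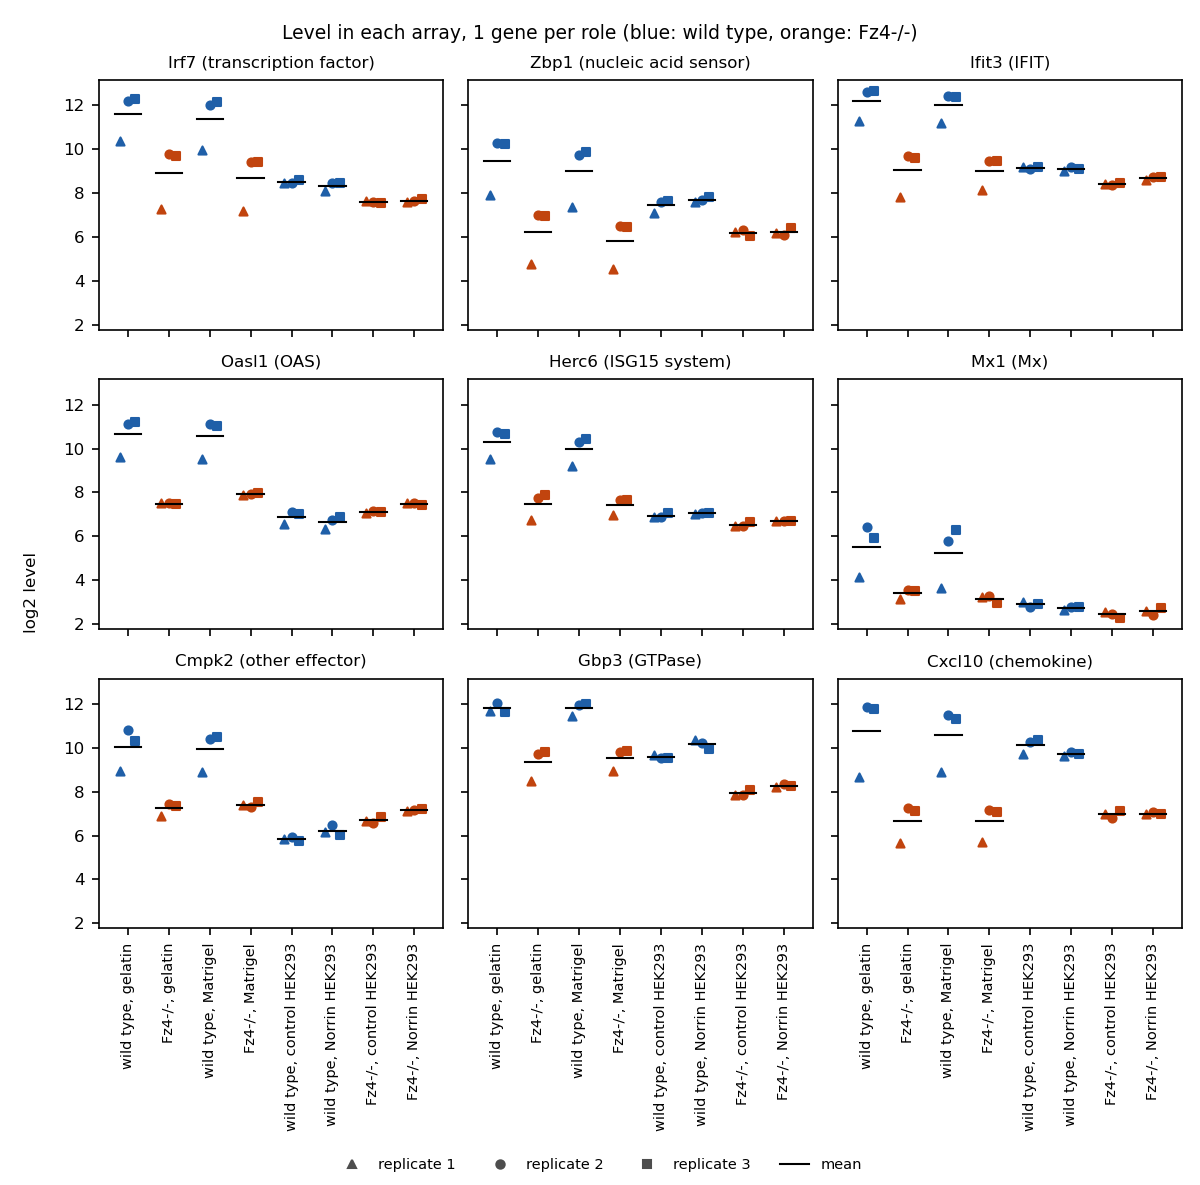
Log2 level in every array (triangle, circle and square for replicates 1, 2 and 3, bar for the mean) of the member with the largest genotype difference on gelatin in each role, across the 8 groups. The wild type single cultures have the highest means in each panel, replicate 1 lies below the others for most genes, and in co-culture the arrays of a group lie close together.

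Some of these calls rested on single arrays. On gelatin 23 of the 28 passed whichever of the 12 arrays was left out. Stat2, Zbp1 and Rtp4 were lost without Fz4-/- gelatin replicate 1, wild type gelatin replicate 2 or wild type gelatin replicate 3 (adjusted p between 0.0873 and 0.115). Oas2 passed only without a wild type Matrigel array or wild type gelatin replicate 1, and Mx1 only without wild type gelatin replicate 1 or wild type Matrigel replicate 1 or 3. On Matrigel 20 of 28 passed throughout. Cxcl10 was lost there without wild type Matrigel replicate 2 or 3 (adjusted p = 0.0502 and 0.0524), Zbp1 also without Fz4-/- Matrigel replicate 1 (up to 0.117), Mx1 in 9 of the 12 omissions, Cxcl11 in 8, Rsad2 in 7, Stat2 in 4, and Mx2 and Trim30a in 3 each.

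Genes that code for the signal itself were read beside these targets. Of 9 measured interferon ligands, 0 passed limma's test on either surface (2 on each had an unadjusted p below 0.05). Ifnb1, the interferon beta gene, read 4.33, 6.52 and 6.39 in wild type and 4.23, 3.76 and 4.33 in Fz4-/- cells on gelatin, and 4.36, 7.14 and 6.88 against 4.15, 3.77 and 3.88 on Matrigel. Wild type replicates 2 and 3 alone were raised, the same arrays in which most members were highest. In Fz4-/- cells on gelatin the members' median was 7.66, 8.76 and 8.70 in replicates 1 to 3, without such a rise in Ifnb1. Any part of Ifnb1 in the members' levels was not tested. The differences were -1.64 ± 0.68 (adjusted p = 0.146) and -2.19 ± 0.68 (adjusted p = 0.0501). Ifng, the interferon gamma gene, stayed between 2.16 and 2.73 in all 12 arrays.

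Among 6 receptor chains, Ifngr2 was higher in Fz4-/- cells by 0.57 ± 0.16 on gelatin and 0.62 ± 0.16 on Matrigel, and the others did not pass. Ifnar1, Ifnar2 and Ifngr1, the remaining chains of the type I and type II receptors, differed by 0.16 ± 0.11, -0.02 ± 0.19 and 0.20 ± 0.16 on gelatin. Of 4 kinase or STAT genes, Jak2 was higher by 0.59 ± 0.08 and 0.29 ± 0.08. H2-K1, the class I gene whose promoter drives the transgene, read 13.12, 13.54 and 13.52 in wild type and 12.998, 13.48 and 13.50 in Fz4-/- cells on gelatin. It differed by -0.07 ± 0.18 (adjusted p = 0.879), and the part of transgene activity in the other differences was not tested.

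The cytoplasmic and endosomal sensing pathway was lower in part, with 4 of 9 genes past as lower on each surface. Tlr3, the endosomal receptor for double-stranded RNA, read 8.35, 9.29 and 9.19 in wild type and 6.96, 6.90 and 6.98 in Fz4-/- cells on gelatin, a difference of -1.999 ± 0.24. Cgas, the cytoplasmic DNA sensor, was lower by -0.89 ± 0.22, Ddx58 (RIG-I) by -0.81 ± 0.10 and Trim25, its ubiquitin ligase, by -0.62 ± 0.13. On Matrigel the 4 were Tlr3, Cgas, Ddx58 and Sting1, the adaptor of Cgas, by -0.43 to -1.42. Of 35 further interferon-stimulated genes outside the 36, 20 were lower on gelatin and 21 on Matrigel, and 1 was higher. The widest differences on gelatin were in Ddx60 (-3.31 ± 0.47), Isg20 (-3.30 ± 0.71), Lgals3bp (-2.58 ± 0.67) and Sp100 (-2.17 ± 0.49). The single gene that was higher, Trim34a (named after its values were seen), differed by 1.59 ± 0.25 and 1.67 ± 0.25.

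Some cell type markers differed by genotype, Thy1 most widely. On gelatin 7.21% of all genes passed as higher and 7.73% as lower. On gelatin 3 of 12 endothelial markers (Emcn, Erg and Tek), 1 of 10 leukocyte markers (Cd14, 0.49), 1 of 8 pericyte or smooth muscle markers (Acta2, 1.28) and 1 of 7 retinal neuron or glia markers (Thy1, 4.32) were higher in Fz4-/- cells, and 0 were lower. The mean of the leukocyte markers per array was 4.85 to 5.05 in wild type and 4.73 to 4.96 in Fz4-/- cells on gelatin. The part of these markers in the interferon response genes was not tested.

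The comparison of Matrigel with gelatin asks what the extract, together with serum starvation, did to the set. In wild type cells 0 of 36 members passed, where 6.71% of all genes passed limma's test as higher and 11.7% as lower. The median difference was -0.19, with a range of -0.48 to 0.28. In 0 members were all Matrigel arrays above or all below the gelatin arrays, beside 14.3% and 24.2% of all genes. Irgm1 was the 1 member with an unadjusted p below 0.05, at -0.34 ± 0.13 (adjusted p = 0.0853, range 0.0079 to 0.327 over the alternatives). With the replicate block 5 members passed as lower, beside 16.4% of all genes: Dhx58, Zbp1, Usp18, Bst2 and Irgm1, by -0.23 to -0.48. Without all arrays numbered 1, 14 members passed as lower, beside 17.3% of all genes.

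In Fz4-/- cells 1 member was lower and 0 higher on Matrigel, beside 11.8% and 7.91% of all genes. All Matrigel arrays lay above the gelatin arrays in 4 members and below in 1, beside 15.8% and 23.4% of all genes. Irgm1, which restrains other GTPases of its family, read 10.11, 10.07 and 10.11 on gelatin and 9.24, 9.47 and 9.48 on Matrigel. The groups did not overlap, and the difference was -0.70 ± 0.13 (adjusted p = 0.0034). It passed whichever array was left out. Rsad2 went the other way, from 8.78, 9.14 and 9.14 to 10.15, 10.20 and 10.16, a difference of 1.16 ± 0.50 that did not pass (adjusted p = 0.129, with the block 0.0340). With the block Zbp1, Oas1a and Bst2 passed as lower too, and Rsad2 and Iigp1 as higher, beside 16.9% and 11.3% of all genes. The response to Matrigel did not differ between genotypes in a member by limma's interaction test (0 of 36, and 0 with an unadjusted p below 0.05), where 0.00550% of all genes passed above 0 and 0.0110% below. The interaction of Rsad2 was 0.97 ± 0.71, and without all arrays numbered 1 it was 1.12 (adjusted p = 0.0152).

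The co-cultures ask what Norrin does. In wild type cells beside Norrin-expressing HEK293 cells, of 36 members 7 rose, 3 fell and 26 did not pass, where 5.39% of all genes rose and 4.18% fell. The median difference was 0.16, against -0.02 over all genes. All 5 GTPases rose, and they made up 5 of the 7. In 9 members every Norrin array lay above every control array and in 7 below, beside 9.87% and 11.5% of all genes. Any other difference between the HEK293 lines cannot be told apart from Norrin.

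Irgm1 had the largest rise. It read 7.87, 8.39 and 8.45 in wild type cells with control HEK293 cells and 9.43, 9.48 and 9.51 with Norrin, a rise of 1.24 ± 0.13 (2.35-fold, adjusted p = 3.59e-06). The Norrin arrays were about 1 log2 above the highest control array. Iigp1 went from 11.24, 11.14 and 11.17 to 11.98, 12.21 and 12.10, a rise of 0.91 ± 0.11. Igtp rose from 10.03, 10.17 and 10.15 to 10.85, 11.01 and 11.06, by 0.86 ± 0.10. Both sets of arrays were well apart. Gbp2 rose by 0.66 ± 0.10 and Gbp3 by 0.58 ± 0.12 (adjusted p = 3.74e-04 and 0.0027), again with no overlap.

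The other 2 rises were in the effectors Ifit1 and Rtp4, a chaperone of G protein-coupled receptors. Rtp4 went from 8.50, 8.75 and 8.84 to 9.18, 9.28 and 9.38, by 0.58 ± 0.11 (adjusted p = 0.0022). Ifit1 went from 6.63, 6.62 and 6.82 to 6.80, 7.54 and 7.54, by 0.61 ± 0.15 (adjusted p = 0.0169). Norrin replicate 1 of Ifit1 lay within the control range, and its call was lost without control replicate 2 or Norrin replicate 2 or 3 (adjusted p between 0.0591 and 0.0965). With the block Cmpk2 passed too, at 0.40 (adjusted p = 0.0490).

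The 3 members that fell were an OAS gene, a chemokine and an IFIT gene. Oas3 read 6.999, 6.68 and 6.77 with control cells and 5.80, 6.03 and 6.03 with Norrin, and fell by -0.86 ± 0.12 (adjusted p = 1.06e-04). Cxcl11 read 7.02, 7.70 and 7.50 against 6.64, 6.78 and 6.76, and fell by -0.68 ± 0.14. Ifit2 read 8.06, 8.26 and 8.46 against 7.54, 7.85 and 7.85, and fell by -0.51 ± 0.12 (adjusted p = 0.0106). None of the 3 overlapped between the groups. Ifit2 was lost without control replicate 3 (-0.41, adjusted p = 0.0599). When all 24 arrays shared a single fit, in which the spread of the single cultures entered, 3 members rose and 0 fell, beside 5.35% and 4.03% of all genes. With replicates 2 and 3 averaged 1 fell (1.52% of all genes).

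In Fz4-/- cells 1 member rose beside Norrin-expressing cells and 0 fell, where 0.214% of all genes rose and 0.242% fell. Rsad2 read 9.10, 8.997 and 9.02 with control cells and 9.56, 9.78 and 9.72 with Norrin, a rise of 0.65 ± 0.11 (1.57-fold, adjusted p = 0.0068). The groups did not overlap. The call was lost without Fz4-/- control replicate 2 or Fz4-/- Norrin replicate 2 or 3 (adjusted p between 0.0544 and 0.0601), and 2 members passed without wild type control replicate 1 or wild type Norrin replicate 1. In 20 of the 36 members every Norrin array lay above every control array, and in 0 below, beside 9.64% and 9.83% of all genes. Before adjustment 14 members had a p below 0.05, all higher, where 4.0% of all genes did so as higher. Of 36 differences 31 were above 0, against 45.3% over all genes, with a median of 0.20. The GTPases differed by 0.22 to 0.48 and did not pass, Irgm1 reading 7.54, 7.51 and 7.57 against 7.98, 8.06 and 8.03.

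**Figure D4:**
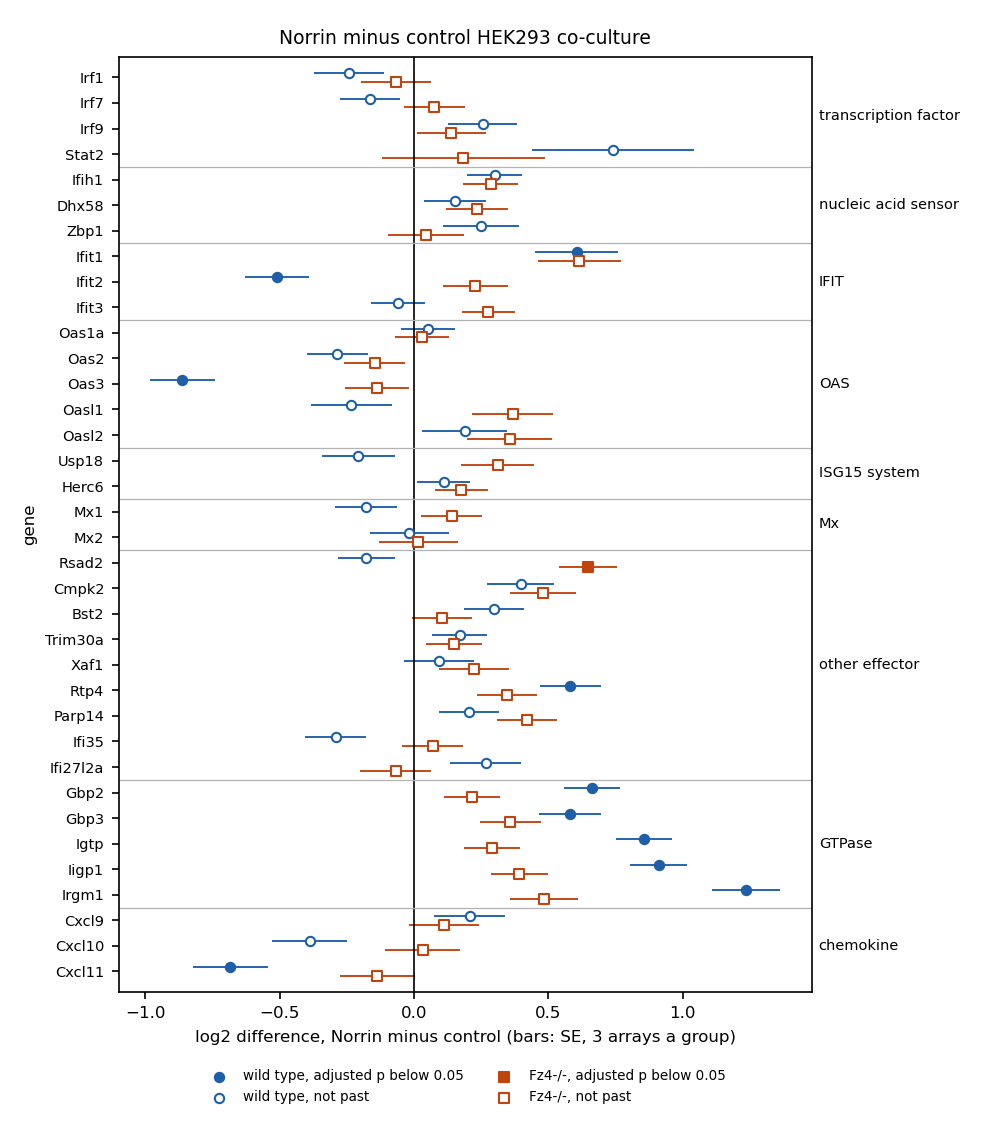
Points give the log2 difference, Norrin minus control HEK293 co-culture, for each gene in wild type (circles) and Fz4-/- cells (squares), with 3 arrays per group. Bars are limma's SE of the difference, with the spread pooled over all groups of the fit. Filled points have an adjusted p below 0.05. The 5 GTPases in wild type lie at 0.58 to 1.24, Oas3, Cxcl11 and Ifit2 lie below -0.5, and in Fz4-/- cells only Rsad2 is filled, at 0.65.

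Whether the response to Norrin differed between genotypes was tested by limma's interaction, Fz4-/- minus wild type. It compares arrays that fall into separate sets by overall level. The interaction passed for 4 members, 3 above 0 and 1 below, where 0.874% and 1.24% of all genes passed. Rsad2 (0.82 ± 0.15, adjusted p = 0.0057), Ifit2 (0.74 ± 0.17, adjusted p = 0.0280) and Oas3 (0.72 ± 0.17, adjusted p = 0.0293) were more positive in Fz4-/- cells. Rsad2 rose there and differed by -0.18 ± 0.11 in wild type, from 8.44, 8.38 and 8.38 to 8.05, 8.29 and 8.34. Ifit2 in Fz4-/- cells read 7.10, 6.96 and 7.15 against 7.35, 7.25 and 7.30, a difference of 0.23 ± 0.12 where wild type fell. Oas3 in Fz4-/- cells read 2.70, 2.76 and 2.59 against 2.74, 2.44 and 2.46, far below its level in the wild type co-cultures. Among all genes it was at percentile 18.2 to 23.9 in those Fz4-/- arrays. Whether a fall could show at so low a level was not tested. Irgm1 had the negative interaction, at -0.75 ± 0.18 (adjusted p = 0.0352). The other 4 GTPases had interactions of -0.22 to -0.56 that did not pass, Igtp the nearest at an adjusted p of 0.0532.

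Of these 4, Rsad2 passed whichever array was left out. Ifit2 passed only without wild type control replicate 1 or a wild type Norrin array. Irgm1 passed only without a wild type control array or wild type Norrin replicate 1. Oas3 was lost without wild type control replicate 1, any Fz4-/- control array, or Fz4-/- Norrin replicate 1 or 3. The counts above 0 ran from 1, without any Fz4-/- control array or Fz4-/- Norrin replicate 1 or 3, to 5 without wild type control replicate 1. Those below 0 ran from 0 to 3, the highest without wild type Norrin replicate 1. In a single fit of all 24 arrays, and with replicates 2 and 3 averaged, 0 of the 3 above 0 passed.

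Of 35 further interferon-stimulated genes, 13 rose with Norrin in wild type cells, 3 fell and 19 did not pass, where 5.39% of all genes rose and 4.18% fell. Gbp6, a guanylate-binding protein, read 9.34, 9.39 and 9.40 with control cells and 10.68, 10.85 and 10.80 with Norrin, a rise of 1.399 ± 0.11. Tnfsf10 (TRAIL) rose by 1.37 ± 0.17, and the GTPases Ifi47 and Irgm2 by 0.89 ± 0.12 and 0.86 ± 0.11. In Fz4-/- cells 0 of the 35 passed limma's test, and 4 had an unadjusted p below 0.05. Of the signalling genes, Ifnar2 fell from 8.12, 8.24 and 8.44 to 7.13, 7.34 and 7.32 in wild type, by -1.004 ± 0.11, the kinase gene Ikbke by -1.61 ± 0.14 and the feedback inhibitor Socs3 by -0.81 ± 0.16. In Fz4-/- cells Ikbke fell by -0.80 ± 0.14 and Tlr3 rose by 0.60 ± 0.11. Ifnb1 and Ifng did not pass.

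Beside these changes, 10 of 12 endothelial markers rose with Norrin in wild type cells (median 0.75) and 0 of 12 in Fz4-/- cells (median 0.23, 4 with an unadjusted p below 0.05 by limma). Cdh5 (VE-cadherin) rose from 5.77, 5.86 and 5.86 to 6.41, 7.14 and 7.13 in wild type, and Egfl7, Esam and Tek by 1.28, 1.06 and 0.99. The mean of the 12 markers per array was 5.97 to 6.18 with control and 6.602 to 6.96 with Norrin cells in wild type. In Fz4-/- co-cultures it was 6.99 to 7.09 and 7.13 to 7.30. The part of endothelial RNA content in the rise of the GTPases was not tested. Of the leukocyte markers, Cd68 fell by -2.29 ± 0.22 in wild type and the other 9 did not pass.

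Across the 8 groups, the co-cultures held the members at a different balance from the single cultures. The median over members per array was 7.58 to 7.93 in the wild type and 7.18 to 7.70 in the Fz4-/- co-cultures, against 9.48 to 11.12 and 7.66 to 8.76 in the single cultures. With control HEK293 cells, 22 of 36 members were within 1 log2 of each other in the genotypes, 13 were lower in Fz4-/- by more than 1 and 1 was higher by more than 1. The shares of all genes within or beyond 1 log2 there were not counted, so these counts do not set the members apart. These values carry no test, because genotype and array set cannot be told apart. Several members lay close together: Ifit1 differed by 0.37, Oas1a by -0.21, Usp18 by -0.13, Ifih1 by -0.20 and Parp14 by -0.01. Among the effectors lower by more than 1 were Oas2 and Ifi27l2a, both at -1.98, and Ifit2 at -1.19.

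The GTPases and chemokines read lower in Fz4-/- co-cultures, with a median of -1.68 over the 5 GTPases and -3.14 over the 3 chemokines. Cxcl9, which was not lower in the Fz4-/- single cultures, differed by -1.89. Cxcl10 read 9.74, 10.27 and 10.35 in wild type and 6.99, 6.82 and 7.13 in Fz4-/- cells with control HEK293 cells. The difference was -4.75 for Cxcl11 (-0.43 by its other probe set, as Cxcl9 was -0.13 by its other one). Oas3 differed by -4.13, Gbp2 by -3.13, Igtp by -1.90 and Irf1 by -1.87. In percentiles among the 18193 genes of an array, Cxcl11 was at 89.9 in wild type and 22.0 in Fz4-/- control co-cultures, while Ifit1 was at 82.3 and 88.1. On gelatin Ifit1 was at 95.8 and 68.1.

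**Figure D5:**
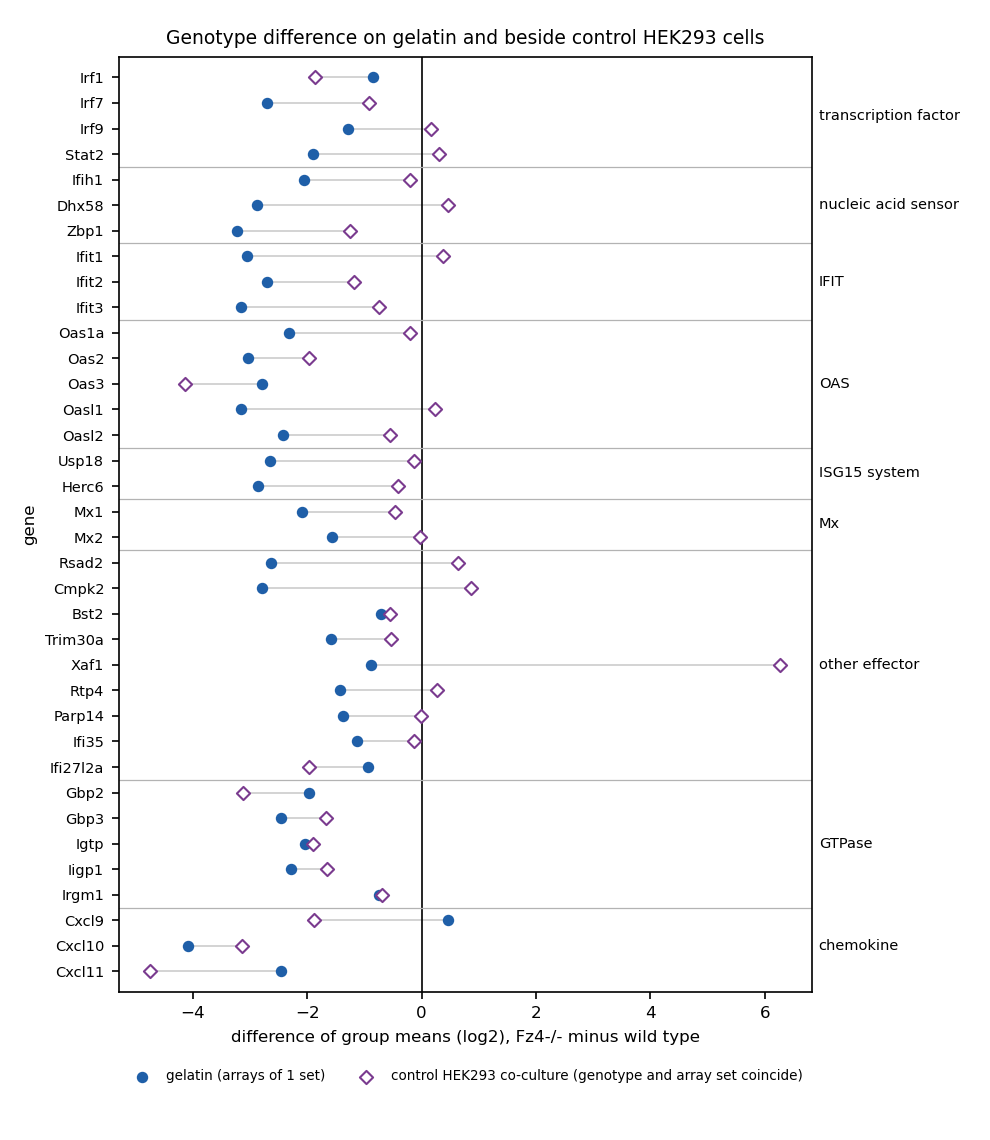
For each gene, the difference of group means (log2), Fz4-/- minus wild type, on gelatin (circles) and beside control HEK293 cells (open diamonds), joined by a line. Of the 21 IFIT, OAS, ISG15 system, Mx and other effector genes, 10 lie below -2 on gelatin and within 1 of 0 in co-culture. The share of all genes that do so was not counted. Among the 10, Mx1 read only 2.29 to 2.99 in the control co-cultures. Further probe sets of Herc6 and Cmpk2 reached -1.64 and 2.32 there. The GTPases and chemokines lie left of 0 in co-culture, and Xaf1 lies at 6.27, where its probe sets disagree.

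Xaf1, an apoptosis factor, is an exception that its probe sets do not share. The probe set used read 3.16, 2.74 and 2.60 in wild type control co-cultures and 9.16, 9.05 and 9.10 in Fz4-/- ones. A further Xaf1 probe set read 7.96, 8.36 and 8.40 against 4.46, 4.41 and 4.86, the opposite order. In the single cultures on gelatin this further probe set read 10.50, 11.48 and 11.45 in wild type and 5.51, 7.33 and 7.28 in Fz4-/- cells, a wider gap than the -0.88 of the probe set used. The probe set used read 10.76, 11.77 and 11.80 in wild type and 9.61, 11.03 and 11.04 in Fz4-/- cells on gelatin. Its low level was thus seen in the wild type co-cultures alone, also with Norrin (2.91, 2.78 and 3.07). The level of Xaf1 in co-culture is therefore uncertain. Whether the wild type cells were the same in single culture and co-culture was not tested. This bears on comparisons of levels across the 8 groups.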

How the data were processed

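Total RNA was measured on mouse expression arrays. Values were deposited on a log2 scale, 1 per probe set, and RMA is named in the submitters' processing notes. Which arrays were normalized together is not given in the sources used here. Levels are not compared by test between array sets. Of 45101 probe sets, 64 controls, 932 with several gene symbols and 9160 without were left out, and the brightest probe set stood for each of 18193 genes.

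Differences were fitted with limma 3.58.1 (R 4.3.3, the package data.table, version 1.17.8) in 1 model of the 12 single-culture arrays and another of the 12 co-culture arrays, with a mean per group, 8 residual degrees of freedom and empirical Bayes moderation. Adjusted p-values are Benjamini-Hochberg over all genes, with a threshold of 0.05. Errors are limma's moderated SE of the difference, with 3 arrays per group and the spread pooled over all groups of the fit. With 3 against 3 the smallest exact permutation p is 0.1, and the number of arrays limits precision. On simulated data of 18193 genes, 85% of 100 genes changed by 1 log2 and 99% of 100 changed by 2 were recovered for genotype on gelatin, with 13 false calls. For Norrin in wild type it was 97% and 100%, with 14. The changed genes were picked at random and the noise of each array was independent. The offset of replicate 1 shared by the members was not simulated, so these rates may not hold for them.

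The members, gene lists, tests and promoters shown were chosen with earlier results of these data known. Values in every array are given for the member with the largest genotype difference on gelatin in each role and for members past an interaction, plus members that carry a Norrin result. Other genes are named from the lists, at most 4 per list by size of difference, beside the interferon genes, receptors and H2-K1.

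Deviations from the group mean of arrays with the same replicate number correlated at 0.24 to 0.72 in the single cultures and 0.10 to 0.36 for Norrin in wild type. The main fits hold no term for the number, so their counts and p-values are unpaired. Pairing by number entered only through the replicate block, an alternative. It rests on this correlation, since the labels give only numbers. For Norrin in Fz4-/- cells it was -0.19 to 0.01. Alternatives were the replicate block, each array left out, quantile normalization, centring arrays on their median, averaging all probe sets per gene, no cross-hybridizing probe sets, genes above the median, 1 fit of all arrays, only the groups compared, a variance that is trended and robust, and a 2-fold minimum. Averaging replicates 2 and 3 and leaving out all arrays numbered 1 were added after seeing the data. Promoters and gene order came from RefSeq on GRCm38.p6. Tables were made with pandas 2.3.3 and numpy 2.4.6 under Python 3.11.15, and figures with matplotlib 3.10.9.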

Additional observations from a re-analysis of the deposited data

Results flagged for a closer look

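The response to Norrin differed between wild type and Fz4-/- cells by limma's interaction test (Fz4-/- minus wild type, adjusted p below 0.05, 3 arrays per group) in 4 interferon response genes. The interaction was 0.82 for Rsad2, 0.74 for Ifit2 and 0.72 for Oas3, and -0.75 for Irgm1. Oas3 read only 2.44 to 2.76 in the Fz4-/- co-cultures, and whether a fall could show there was not tested. Among the listed genes around the pathway the interaction also passed for the receptor chain Ifnar2 (0.75), the kinase gene Ikbke (0.81) and the feedback inhibitor Socs3 (0.96). All of these fell in wild type, Ikbke in Fz4-/- cells too. The interaction was below 0 for Tnfsf10 (-1.58), Gbp6 (-1.01), Ifi47 (-0.75) and Irgm2 (-0.64), all of which rose in wild type. The co-culture arrays of the genotypes fall into separate sets by overall level, which no label names. A difference in response cannot be told apart from a difference between such sets. Groups of 3 arrays were not tested for single outlying arrays.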

How the results depend on the processing

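No member's difference changed sign between the main fit and an alternative where it passed in either of them. Signs were not compared where it passed in neither. The genotype counts on gelatin and Matrigel (28 lower on each) stayed within 1.5 times under every alternative except averaging replicates 2 and 3, which left 6 on each surface. Leaving out each array gave 23 to 31 lower on gelatin and 20 to 33 on Matrigel, with 0 higher. Without the arrays numbered 1, the counts were 1 higher for genotype on gelatin and 1 on Matrigel, beside 13.4% and 12% of all genes. For Matrigel, 14 were lower in wild type (17.3% of all genes), and 4 higher and 10 lower in Fz4-/- (11.5% and 18.7%). There was 1 above 0 for the Matrigel interaction (0.165%), 3 higher for Norrin in Fz4-/- (0.429%) and 0 below 0 for the Norrin interaction (1.5%). The replicate block gave 5 lower for Matrigel in wild type (16.4% of all genes), and 2 higher and 4 lower for Matrigel in Fz4-/- (11.3% and 16.9%). It gave 2 higher for Norrin in Fz4-/- (0.275%), where the numbers did not pair. Beyond the calls named in the report it changed none, and it made 26 further calls on members and lost 0. A fit of all 24 arrays gave 1 higher for Matrigel in Fz4-/- (8.34% of all genes) and 3 higher and 0 lower for Norrin in wild type (5.35% and 4.03%). For Norrin it gave 0 higher in Fz4-/- (0.11%) and 0 above 0 for the interaction (0.654%). With only the groups compared, 2 members were higher for Matrigel and 4 for Norrin in Fz4-/-, beside 1162 and 91 of 18193 genes. This setting gives no value for interactions. A 2-fold minimum left 0 lower for Matrigel in Fz4-/- (139 of all genes) and 1 higher and 0 lower for Norrin in wild type (125 and 57). For Norrin it left 0 higher in Fz4-/- (2 of all genes) and 0 above or below 0 for the interaction (41 and 85). Averaging replicates 2 and 3 left 0 lower for Matrigel in Fz4-/- (2.41% of all genes) and 1 lower for Norrin in wild type (1.52%). For Norrin it left 0 higher in Fz4-/- (0.011%) and 0 above or below 0 for the interaction (0.198% and 0.297%). Quantile normalization gave 5 lower for Norrin in wild type (988 of all genes) and 3 below 0 for the Norrin interaction (313 of all genes). The mean of probe sets gave 0 higher for Norrin in Fz4-/- (33 of all genes) and 3 below 0 for the interaction (224). That count was also 3 with trended robust variance (249 of all genes). It was 2 with genes above the median (203 genes) or with no cross-hybridizing probe sets (192 genes). Median centring gave 1 lower for Matrigel in wild type (2598 of all genes). Leaving out each array gave 0 to 1 lower for Matrigel in wild type, 0 to 1 higher and 1 lower for Matrigel in Fz4-/-, 6 to 8 higher and 2 to 4 lower for Norrin in wild type, 0 to 2 higher in Fz4-/-, and 1 to 5 above and 0 to 3 below 0 for the Norrin interaction. Apart from the single fit, fewer genes tested, fewer samples or the stricter fold, the cause was not tested. Signal over background is not given, so which low levels stand above it is unknown.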

Other observations

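Of 15 members with several probe sets, 11 had 1 sign over all of them for Fz4-/- minus wild type in control co-culture, and 5 spanned over 1 log2. Signs differed for Xaf1, for Herc6 (-1.64 to 0.12), for Stat2 (-0.38 to 0.31) and for Parp14 (-0.01 to 0.26). Cmpk2 kept 1 sign but differed in size (0.87 and 2.32). The probe set used was at 5.82, 5.91 and 5.74 in the wild type and 6.66, 6.57 and 6.86 in the Fz4-/- control co-cultures. The other Cmpk2 probe set was at 3.34, 4.08 and 4.03 and at 6.28, 6.16 and 5.96. On gelatin the other probe set read 8.62, 10.63 and 10.60 in wild type and 6.73, 7.28 and 7.34 in Fz4-/- cells, near the one used.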
